A study of Homo sapiens with 6 samples.

Results

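Heparan sulfate is a sulfated sugar chain carried by cell-surface and matrix proteoglycans, where it binds growth factors, chemokines and matrix proteins. The chain is polymerised in the Golgi by the EXT1 and EXT2 glycosyltransferases on a linker sugar attached to a core protein. It is then modified in order by N-deacetylase/N-sulfotransferases (NDST), the GLCE epimerase, and O-sulfotransferases named for the position they sulfate (HS2ST, HS6ST, HS3ST), with 3-O-sulfation the rarest and usually the last step. The 10 enzyme genes described here were taken by symbol: EXT1, EXT2, NDST1, NDST2, GLCE, HS2ST1, HS6ST1, HS3ST1, HS3ST3A1 and HS3ST3B1. All 10 were among the 29710 genes of the count table. The set was chosen by gene family with an earlier result in view, the lower HS3ST3B1 counts of the SRPK2 libraries against vector. Differences of these genes between the groups are therefore given as descriptions, with no p-value printed, and support nothing. Where a member is said to be under an adjusted p threshold, that too is a description.

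The libraries came from MDA-MB-231, an established triple-negative breast cancer cell line, and were sequenced as paired-end, strand-specific RNA-seq. Cells overexpressing FLAG-tagged SRPK2, a kinase of serine- and arginine-rich splicing factors (3 biological replicates), were set against cells with an empty vector (3 biological replicates). Both groups are the same line with no other treatment named. Whether the cells were a pool or a clone, and for how long they carried the construct, the sources used here do not say. Libraries held 31140537 to 36908878 reads assigned to genes. SRPK2 itself had 37.8, 36.7 and 41.1 CPM (read counts scaled by TMM-adjusted library size) with vector and 213, 248 and 294 CPM with SRPK2, a log2 fold change of 2.71 (SE 0.10; adjusted p = 2.94e-08, from edgeR's quasi-likelihood test with Benjamini-Hochberg adjustment). All 6 markers fixed for the line were expressed, led by VIM at 626 FPKM with vector, while ESR1 and PGR, the oestrogen and progesterone receptor genes, had at most 2 and 4 reads in a library. ERBB2, the HER2 receptor gene of the same list, had 1500 to 1998 reads (4.09 FPKM with vector), and stood at 46.2 to 48.3 CPM with vector and 50.7 to 52.1 CPM with SRPK2 (edgeR adjusted p = 0.234). Summed fibroblast markers stood at 9.24 to 10.1 CPM with vector and 12.0 to 13.0 CPM with SRPK2. Of these 6 markers, 5 could be tested, 0 passed, and COL3A1 had at most 3 reads. COL1A1, LUM and PDGFRB were higher in every SRPK2 library, while COL1A2 and DCN overlapped between the groups. The summed leukocyte, endothelial, and keratinocyte and luminal markers overlapped as well. The part of the fibroblast markers in the results below was not tested.

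HS3ST3A1 and HS3ST3B1 are paralogues whose catalytic part is nearly the same in sequence, which bears on how reads can be assigned to them. Both lie on chromosome 17 (GRCh38, GENCODE 29), HS3ST3A1 (ENSG00000153976.3) at chr17:13495689-13601927 on the minus strand and HS3ST3B1 (ENSG00000125430.9) at chr17:14301083-14349404 on the plus strand, 699 kb apart. The identifiers of the HS3ST genes carry the version number of the count table, which is higher than in GENCODE 29. Each of the 2 paralogues has 2 exons. In the second, 617 of 619 aligned coding bases were identical (99.7%), in a run of up to 537 bases without a difference, whereas the first coding exons were 70.0% identical. A stretch of 90 bases from that run, in exon 2, shows the shared part, and the HS3ST1 bases aligned with it show the more distant family member, with bases that differ from HS3ST3B1 in capitals. HS3ST1 (ENSG00000002587.10, chr4:11393150-11429765, minus strand) was 63.7% identical to HS3ST3B1 over 908 aligned coding bases. The 3 stretches are chr17:13496427-13496516, chr17:14345330-14345419 and chr4:11399300-11399389, each 5′ to 3′ on the coding strand.
HS3ST3A1: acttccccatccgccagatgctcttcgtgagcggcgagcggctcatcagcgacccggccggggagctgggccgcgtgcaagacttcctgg
HS3ST3B1: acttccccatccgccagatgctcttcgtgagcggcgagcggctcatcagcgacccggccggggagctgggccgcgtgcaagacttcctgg
HS3ST1: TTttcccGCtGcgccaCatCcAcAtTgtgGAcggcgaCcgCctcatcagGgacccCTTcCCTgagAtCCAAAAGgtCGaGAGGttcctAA

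HS3ST1 differed from the pair at 37 of these 90 bases. The first 60 coding bases of the 2 paralogues, in exon 1 (chr17:13601070-13601129 and chr17:14301519-14301578), show where they can be told apart. Capitals mark bases that the alignment paired with a different base or with none, 22 in HS3ST3A1 and 26 in HS3ST3B1.
HS3ST3A1: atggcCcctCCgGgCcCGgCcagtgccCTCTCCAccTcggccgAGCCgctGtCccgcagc
HS3ST3B1: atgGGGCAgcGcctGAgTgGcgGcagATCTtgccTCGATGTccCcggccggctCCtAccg

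Over the whole annotated transcripts, 9.87% of the 50-base words of HS3ST3B1 (5367 bases) were also in HS3ST3A1, and 21.2% of those of HS3ST3A1 (2527 bases) in HS3ST3B1. How the authors' counter treated reads that map to both is not stated in the labels, so the split between these paralogues is uncertain over that part.

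The first question was which of these enzymes the cells express at all, and at what level relative to one another, compared per transcript length as FPKM (fragments scaled to transcript length and library size). Of the 10 genes, 8 had an FPKM of at least 1 in each of the 6 libraries, and NDST2 and HS3ST3A1 had at most 15 reads in any library. With vector, the polymerase gene EXT1 was highest at 19.4 ± 0.951 FPKM (SD, n = 3), 10.3 times the level of HS3ST1. NDST1, which removes acetyl groups and adds N-sulfate, followed at 8.73 ± 0.482, and HS2ST1, the 2-O-sulfotransferase of uronic acids, at 7.16 ± 0.326 (SD, n = 3 each). EXT2, the partner of EXT1 in the polymerase, stood at 5.14 ± 0.202 FPKM, HS6ST1, which sulfates glucosamine at the 6-O position, at 4.25 ± 0.127, and GLCE, which turns glucuronic into iduronic acid, at 3.38 ± 0.117 (SD, n = 3 each). Of these 8 genes the 3-O-sulfotransferases were lowest, HS3ST3B1 at 2.77 ± 0.217 and HS3ST1 at 1.88 ± 0.128 FPKM (SD, n = 3 each).

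**Figure D1:**
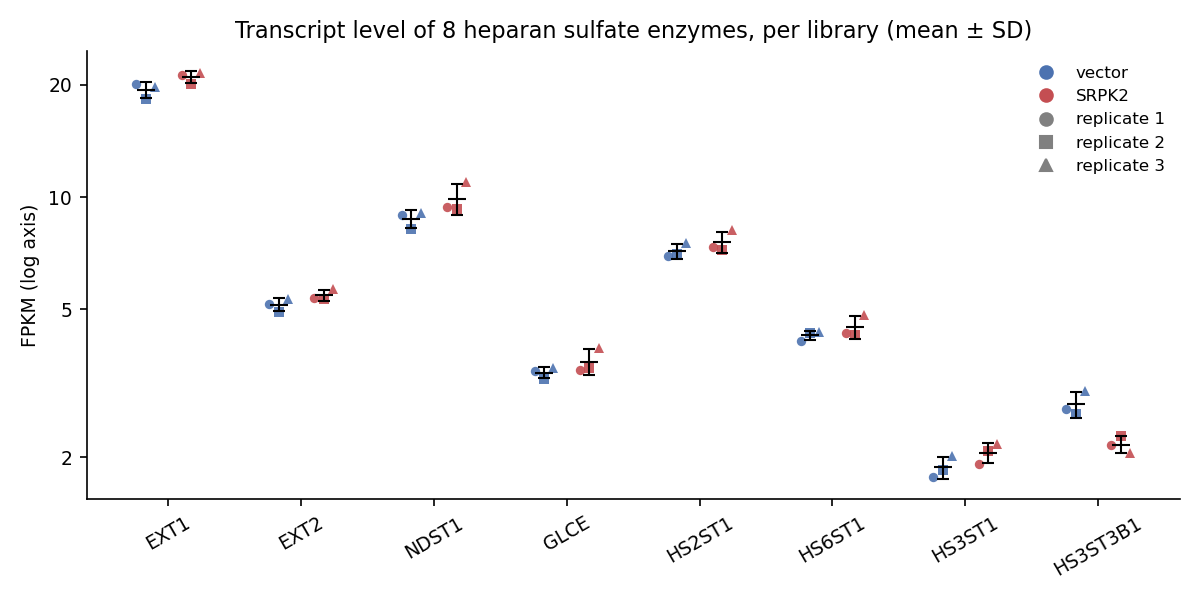
FPKM (log axis) of the 8 expressed heparan sulfate enzyme genes in the 3 vector (blue) and 3 SRPK2 (red) libraries, one point per library, with black bars for the mean ± SD. EXT1 lies near 20 FPKM in all 6 libraries, and HS3ST3B1 is the gene whose SRPK2 points all lie below its vector points.

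By the deposited FPKM, the order EXT1, NDST1, HS2ST1, EXT2, HS6ST1, GLCE held in all 6 libraries. The ranges over the 6 libraries of neighbours in that order did not overlap, although NDST1 (8.18 to 10.99 FPKM) and HS2ST1 (6.93 to 8.14) came close. HS3ST3B1 (2.05 to 3.02 FPKM) and HS3ST1 (1.77 to 2.17) did overlap, and so did NDST2 (0.02 to 0.08) and HS3ST3A1 (0.00 to 0.03). In the deposited FPKM, EXT1 exceeded EXT2 by a factor of 3.72 to 3.98 within each library. The gene lengths behind those FPKM values are not stated, and can only be derived from counts and FPKM together. With vector, EXT2 had 118 CPM, above NDST1 (92.6) and HS2ST1 (59.3) and below EXT1 (232). In GENCODE 29 EXT2 has 5286 exon bases, against 9529, 7429 and 8325 for those genes in turn. By these lengths EXT2 would stand above NDST1 and HS2ST1 and nearer to EXT1. CPM and FPKM together imply that the deposited FPKM took EXT2 as longer than NDST1, HS2ST1 and EXT1. GENCODE 29 has it shorter than each of them. The low rank of EXT2 and its ratio to EXT1 thus rest on that length, and are uncertain.

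HS3ST3A1 had 0, 1 and 3 reads with vector and 4, 1 and 2 reads with SRPK2, at or under a floor of 3 reads in 5 of the 6 libraries. Both groups were near the floor, so no fold is given. HS3ST3B1 had 568, 516 and 650 reads with vector and 398, 473 and 449 with SRPK2, so nearly all reads given to the pair were given to HS3ST3B1.

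NDST2 (chr10:73801911-73811798, minus strand), a second N-deacetylase/N-sulfotransferase, had 7, 6 and 10 reads with vector and 4, 7 and 15 with SRPK2. The gene is overlapped on the same strand by a protein-coding locus, RP11-574K11.31 (ENSG00000272916.5), which shares 3857 of the 4654 exon bases of NDST2 (82.9%) in GENCODE 29. That locus had 562, 432 and 517 reads with vector and 543, 489 and 655 with SRPK2, between 43.7 and 136 times the reads of NDST2. Gene totals cannot show which of the 2 loci these transcripts came from, so the NDST2 level is uncertain. With both loci summed, a total formed after the values were seen, the log2 fold change was 0.16 (SE 0.09). HS2ST1 has a similar neighbour, RP5-1052I5.2, which covers 9.69% of its exon bases, but there HS2ST1 held 1873 to 2463 reads and the neighbour 0 to 6.

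The second comparison was between SRPK2 and vector cells. HS3ST3B1, whose product makes 3-O-sulfated chains that serve as an entry receptor for herpes simplex virus, was the only one of the 8 members in the fit (those with enough reads) with a negative value. Its level was 16.2, 15.9 and 17.8 CPM with vector and 12.7, 13.5 and 11.7 CPM with SRPK2. The groups did not overlap, and the lowest library was SRPK2 replicate 3. The log2 fold change was -0.39 (SE 0.08, 95% interval -0.56 to -0.23), a fold of 0.761. In bulk RNA, fewer cells expressing a gene and less RNA per cell cannot be told apart. Counting error alone is 3.92% to 5.01% of the level at these read numbers, and the replicates varied by 6.09% with vector and 7.17% with SRPK2.

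The values of the 7 other members in the fit lay between 0.04 and 0.14 on the log2 scale. NDST1 had the highest of them, with 95.1, 88.2 and 94.5 CPM with vector and 98.4, 97.3 and 111 CPM with SRPK2 (log2 fold change 0.14, SE 0.06). The NDST1 groups did not overlap, but SRPK2 replicates 1 and 2 were only slightly above vector replicate 1. The value was 0.08 without SRPK2 replicate 3. HS3ST1, whose product makes the antithrombin-binding site of heparan sulfate, had 14.7, 15.6 and 16.5 CPM with vector and 15.6, 17.1 and 17.2 CPM with SRPK2 (0.10, SE 0.07), and its groups overlapped. EXT1 had 241, 223 and 233 CPM with vector and 252, 238 and 246 CPM with SRPK2 (0.08, SE 0.05), again with overlap.

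**Figure D2:**
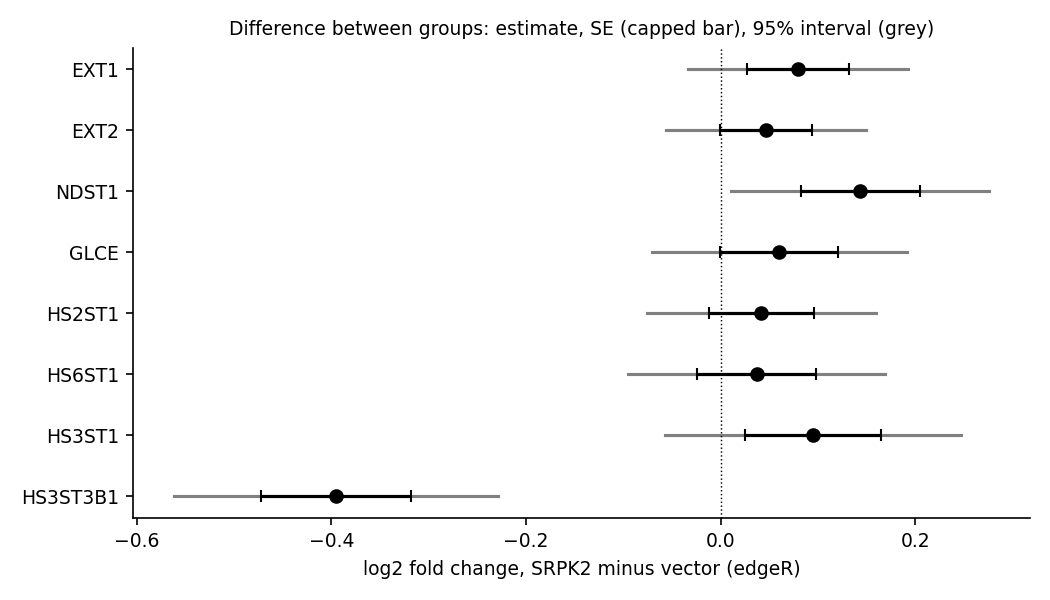
Log2 fold change (SRPK2 minus vector, edgeR) of the 8 heparan sulfate enzyme genes in the fit, as a point with its SE (capped black bar) and 95% interval (grey line), from 3 libraries a group. HS3ST3B1 lies at -0.39, and the other 7 points lie between 0.04 and 0.14.

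GLCE had a log2 fold change of 0.06 (SE 0.06), EXT2 of 0.05 (SE 0.05), HS2ST1 of 0.04 (SE 0.05) and HS6ST1 of 0.04 (SE 0.06). For GLCE, HS2ST1 and HS6ST1 the groups overlapped. EXT2 had 119, 115 and 120 CPM with vector and 121, 121 and 124 CPM with SRPK2, which do not overlap, while its FPKM values did (4.92 to 5.32 against 5.31 to 5.65). The sign of EXT2 turned when each library was corrected by gene length (-0.03), as did that of HS2ST1 (0.00, just below zero), and the correction gave EXT1 0.02 and all 7 members other than HS3ST3B1 values between -0.03 and 0.09. Leaving out 1 library also moved these small values by over 1.5 times. Without SRPK2 replicate 3, GLCE was 0.01, HS2ST1 was 0.00 and HS6ST1 was -0.01. Without vector replicate 2, EXT1 was 0.05, EXT2 was 0.02 and HS6ST1 was 0.06. Without vector replicate 1, HS3ST1 was 0.06, HS2ST1 was 0.02 and HS6ST1 was 0.01. HS2ST1 was 0.07 without vector replicate 3 or SRPK2 replicate 2, and HS6ST1 was 0.06 without the latter. SRPK2 replicate 3 was the highest library for 6 of the 8 members in the fit, EXT1 and HS3ST3B1 being the exceptions.

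Over all 16515 tested genes, 75 (0.454%) had an edgeR adjusted p under 0.05, 0.0727% as lower. Of the 8 members in the fit, 1 was among them, HS3ST3B1 as lower, a count that the choice of the set had fixed in advance. It was no longer among them once any 1 library was dropped, unless that library was SRPK2 replicate 2. Groups did not overlap for 3 members, HS3ST3B1 lower and NDST1 and EXT2 higher, where 20.1% of all tested genes had groups without overlap (8.69% lower and 11.5% higher). Nothing is read from these counts, since the set was drawn up with the HS3ST3B1 result known. The median of the 8 log2 fold changes was 0.05, beside 0.00 over all tested genes. The 95% intervals of the 7 others together spanned -0.10 to 0.28 and did not reach the interval of HS3ST3B1. HS3ST3B1 was known to be lower when the set was chosen, so this gap adds no support. Whether HS3ST3B1 differed from each of them was not tested.

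The balance of the 2 expressed 3-O-sulfotransferases followed from these values. HS3ST3B1 stood at 1.52, 1.41 and 1.50 times the FPKM of HS3ST1 with vector, and at 1.13, 1.10 and 0.945 times with SRPK2. By the deposited FPKM, HS3ST3B1 was therefore above HS3ST1 in each vector library and below it in SRPK2 replicate 3. The gene lengths behind those FPKM values are not stated, so the order of the 2 genes is uncertain. By CPM, with no scaling to length, HS3ST3B1 was above HS3ST1 in each vector library and below it in each SRPK2 library. Its share of the summed FPKM of HS3ST1, HS3ST3A1 and HS3ST3B1, which rests on the same lengths, was 59.5% with vector and 51.1% with SRPK2. This is a description of the same contrast and adds no support to it.

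**Figure D3:**
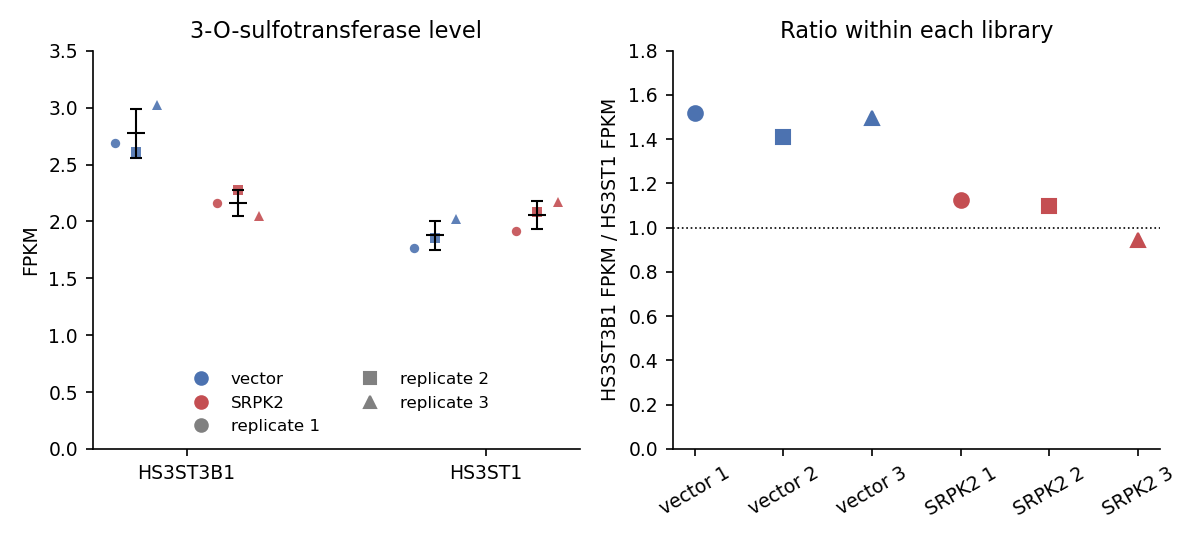
Left, FPKM of HS3ST3B1 and HS3ST1 in each vector (blue) and SRPK2 (red) library, with black bars for the mean ± SD. Right, the ratio of the 2 genes within each library, with a dotted line at equal levels. The vector libraries lie at 1.41 to 1.52 and the SRPK2 libraries at 0.945 to 1.13. Which points lie above or below the dotted line depends on the gene lengths behind the deposited FPKM, which are not stated.

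The first intron of HS3ST3B1 holds long noncoding RNA genes on the same strand that share no exon base with it, looked up after the HS3ST3B1 values were seen. RP11-214O1.3 (ENSG00000266378.1, chr17:14327335-14329474) had 3, 13 and 10 reads with vector and 14, 5 and 5 with SRPK2, too few for the test. RP11-214O1.2 (ENSG00000266709.1, chr17:14303854-14305505) had 3.64, 4.13 and 3.80 CPM with vector and 3.64, 3.86 and 4.38 CPM with SRPK2. Its groups overlapped, at 0.05 on the log2 scale (SE 0.12, adjusted p = 0.865 in edgeR).

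Among 13761 other tested genes with a mean of at least 1 CPM, those whose centred log2 CPM over the 6 libraries lay closest to HS3ST3B1 were CLDND2, RAMP1, CST7, EID3 and SDCBP2. The root mean square difference was 0.065, 0.070, 0.078, 0.082 and 0.082, where HS3ST3B1 itself deviated from its mean by 0.211. Their log2 fold changes lay between -0.44 and -0.28, and with 6 libraries in 2 groups such a likeness is a description only.

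The remaining genes of the pathway, in 8 lists, were not part of the rule, but the lists were drawn up with earlier results of these data known. Of their 84 members, 74 were found by symbol in the count table and 64 had enough reads to be tested. In the edgeR test 0 of the 64 rose and 0 fell at an adjusted p under 0.05, beside 0.454% of all tested genes. At an unadjusted p under 0.05 there were 14 (21.9%; 12 higher and 2 lower), where 17.2% of all tested genes reached it (9.06% higher and 8.1% lower). DESeq2 and limma-voom each called 1 of them, SDC4, while 5 were called with no filter on low counts and 8 without SRPK2 replicate 2. The replicate number as a block, a batch that the labels do not state, gave 19 (16 higher and 3 lower). Over all genes it called 3899 of 16515. With the gene length correction added, 13 were called (12 higher and 1 lower), beside 3308 of 15331 over all genes. The median log2 fold change was 0.02, beside 0.00 over all tested genes.

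Core proteins, which carry the chains, showed 0 of 9 tested members past the threshold and a median of 0.12, and 4 of the 9 had higher values in all SRPK2 libraries than in any vector library, where 11.5% of all tested genes did. SDC4, a syndecan and by FPKM the most abundant of them (88.1 FPKM with vector), had 262, 245 and 264 CPM with vector and 304, 310 and 302 CPM with SRPK2. Every SRPK2 library was above every vector library, and the log2 fold change was 0.25 (SE 0.05), but the edgeR adjusted p of 0.0598 missed the threshold. HSPG2, which encodes the basement membrane proteoglycan perlecan, reached 0.29 (SE 0.09, edgeR adjusted p = 0.164), the largest absolute value in the list, and SDC1, the next most abundant by FPKM, had -0.04 (SE 0.05, edgeR adjusted p = 0.748). The fibroblast markers given above, as a summed level, were also higher in the SRPK2 libraries, and their part in the values of the core proteins was not tested.

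The other polymerases and sulfotransferases had 4 tested members of 11, 0 of them past the threshold, with a median of 0.13. EXTL2, a glycosyltransferase related to the EXT genes and the most abundant here by FPKM (6.51 with vector), had 0.15 on the log2 scale (SE 0.06, edgeR adjusted p = 0.220). EXTL3, which starts the heparan sulfate chain, had 0.05 (SE 0.06, edgeR adjusted p = 0.698). HS6ST3, a low-level 6-O-sulfotransferase at 5.01 CPM with vector and 6.81 CPM with SRPK2, had the largest value at 0.44 (SE 0.11, edgeR adjusted p = 0.122). HS6ST2 and HS3ST5 had too few reads to be tested.

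Linker enzymes, which build the sugar that joins the chain to its core protein, showed 0 of 6 tested genes past the threshold and a median of -0.07. B3GAT3, which adds the final glucuronic acid of the linker, had -0.20 (SE 0.06, edgeR adjusted p = 0.192), and FAM20B, a xylose kinase that promotes linker extension, had 0.04 (SE 0.05, edgeR adjusted p = 0.707). Genes that supply sulfate and sugar donors showed 0 of 13 past it and a median of -0.03. SLC35B2, a Golgi transporter of the sulfate donor, had -0.06 (SE 0.05, edgeR adjusted p = 0.551) and PAPSS2, a synthase of that donor, 0.12 (SE 0.05, edgeR adjusted p = 0.287). SLC35D2, a nucleotide sugar transporter, had -0.18 (SE 0.11, edgeR adjusted p = 0.417).

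Of the enzymes that edit the finished chain outside the cell, only heparanase (HPSE), which cleaves it, was tested, with 0.09 (SE 0.08, edgeR adjusted p = 0.606). SULF2, an extracellular 6-O-sulfatase, had 2 to 5 reads per library, and SULF1 no more than 1. The lysosomal degradation enzymes showed 0 of 8 past the threshold and a median of 0.09. GUSB, the beta-glucuronidase, had 0.07 (SE 0.05, edgeR adjusted p = 0.480), and ARSG, a sulfatase gene at a low level, had -0.17 (SE 0.19, edgeR adjusted p = 0.664).

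Chondroitin and dermatan sulfate are made on the same linker by another set of enzymes, and 0 of the 15 tested genes of that list passed, with a median of 0.00. CSGALNACT2, which starts the chondroitin chain, had 0.03 (SE 0.07, edgeR adjusted p = 0.863), and CHST11, a chondroitin 4-O-sulfotransferase, had 0.08 (SE 0.05, edgeR adjusted p = 0.429). CHST3, a chondroitin 6-O-sulfotransferase, had the largest value at 0.24 (SE 0.07, edgeR adjusted p = 0.172). Fibroblast growth factors signal through receptors that need heparan sulfate as a co-receptor, and 0 of 8 tested genes of that list passed, with a median of 0.05. FGFRL1, a receptor without a kinase domain, had 0.07 (SE 0.05, edgeR adjusted p = 0.515), FGFR1 had 0.10 (SE 0.06, edgeR adjusted p = 0.390), and FGFR3, at a low level, had 0.24 (SE 0.18, edgeR adjusted p = 0.502).

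**Figure D4:**
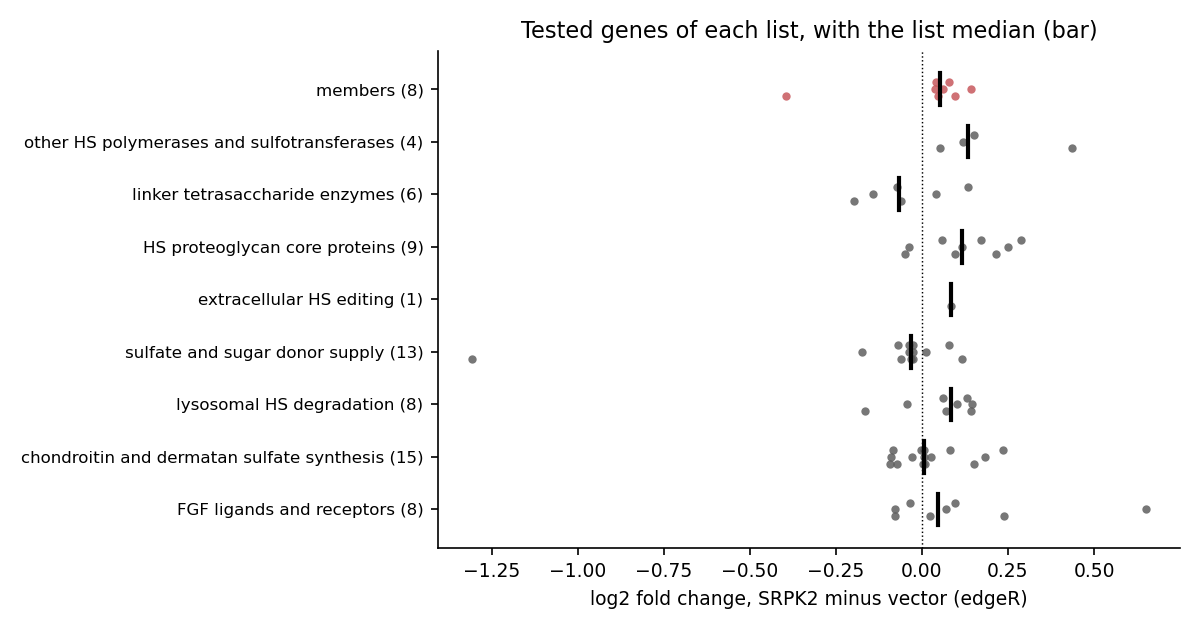
Log2 fold change (SRPK2 minus vector, edgeR) of each tested gene, one point per gene, for the 8 heparan sulfate enzymes in the fit (red, top row) and the 8 pathway lists (grey), with a black bar at each list's median and the number of tested genes in brackets. HS3ST3B1 is the red point at -0.39. The point farthest left is SLC26A1, a sulfate transporter gene with 3 to 15 reads in a library (-1.31, SE 0.38), which did not pass the threshold.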

How the data were processed

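RNA sequencing of 6 libraries was used, grouped by their titles. Per the submitters' processing notes the tools included bcl2fastq, FastQC and HISAT2, with the build GRCh38. Which program counted the reads, with which strand option and gene annotation, is not given in the sources used here. The authors deposited whole-number counts per gene, not normalized, and FPKM values rounded to 2 decimals.

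The test was edgeR 4.0.16 under R 4.3.3 (TMM, filterByExpr, glmQLFit and glmQLFTest, group as the only term). This was done over all genes, with Benjamini-Hochberg adjustment over the 16515 tested and a threshold of 0.05. SEs were derived from the fold change and its F statistic. Intervals cover 95%. Log2 CPM used a prior count of 2. Where nothing shows separate cultures, p-values measure the spread between these libraries only.

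The members and the lists were chosen with earlier results of these data known. Named genes were the 10 members, SRPK2, and in each pathway list up to 4 called genes. Where none was called, they were the 2 with the highest mean FPKM and the largest absolute change among tested genes with a mean of at least 1 CPM. A gene that this rule picks is not reported here. The intronic RNA, overlapping loci and SLC26A1 were added after their values were seen.

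Coding sequences and coordinates are from GENCODE 29 transcripts (GRCh38), matched without the version of the identifier, and were aligned with Biopython 1.88. The fit was tested on simulated counts for this comparison (16329 genes). Of 50 genes per size, it called 56% of those changed 1.25-fold, 88% at 1.5-fold, and 100% at 2-fold and 4-fold. It called 13 of 16129 unchanged genes. The simulated counts were drawn independently per gene and library, and only genes with a mean of at least 1 CPM were changed. The simulation held no structure shared by same-numbered libraries, so these rates may not hold for the data themselves. Alternatives used DESeq2 1.42.0 and limma 3.58.1.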

Additional observations from a re-analysis of the deposited data

How the results depend on the processing

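The HS3ST3B1 log2 fold change stayed negative in all 19 alternatives, from -0.45 to -0.25 (a description, since the set was chosen with it known), and it was among the genes under an adjusted p of 0.05 in 7 of them. It was -0.25 with limma on log2(FPKM + 1), with a mean FPKM filter of 0.5 or with none, where the added 1 shrinks changes of low genes. Leaving out single libraries gave -0.45 to -0.34, and it was among those genes only without SRPK2 replicate 2. Adding the reads of HS3ST3A1, chosen after the data were seen, gave -0.39. It was not among those genes with that sum, libraries scaled by size alone, a mean CPM of at least 5, limma-voom or limma on FPKM. The 7 other members in the fit had a positive value in 121 of 126 alternative fits. All 38 recomputed vector levels moved by less than 1 SD, which adds no support. Leaving out 1 of 3 libraries cannot move a mean that far. The other recomputed levels used gene lengths derived from the deposited counts and FPKM themselves. SRPK2 passed in each alternative, between 2.53 and 2.81.

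Over all genes, 75 calls became 997 with no filter on low counts, 153 with DESeq2, 18 with limma on log2(FPKM + 1) without a filter, and 27 to 1414 when single libraries were left out (27, 46 and 33 without vector replicates 1, 2 and 3, and 43, 1414 and 42 without SRPK2 replicates 1, 2 and 3). The pathway lists went from 0 calls to 1 with library size alone, DESeq2, limma-voom or the gene length correction, SDC4 in each, to 5 with no filter, and to 0 to 8 without single libraries, with 8 without SRPK2 replicate 2. The cause was not tested.

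With the replicate number as a block, 3899 of 16515 tested genes were called, 19 of them in the pathway lists. With that block and the gene length correction, 3308 of 15331 were called, 13 of them in those lists. The labels do not say that a number marks a shared batch. Deviations of same-numbered libraries correlated at 0.084 to 0.230 across genes and those of differently numbered ones at -0.165 to 0.00. Each library was therefore closest to its own number, a hint from the data. Deviations from a group's mean cancel within the group, so positive values for same-numbered pairs pull the others to negative values. These ranges are thus not separate evidence. Under the block the members under the threshold were HS3ST3B1 (-0.40), NDST1 (0.14) and EXT1 (0.08), and with the length correction added HS3ST3B1 (-0.42) and NDST1 (0.09) but not EXT1 (0.02). The set was chosen with a result of this contrast known, so these member calls are descriptions and support nothing. NDST2 and HS3ST3A1 had too few reads for the fit. The intervals given come from the edgeR fit, and cover the spread between these libraries as well as counting error.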
